A study of Sus scrofa with 22 samples.

Results

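A group of 10 genes that dividing cells use to copy their DNA and to part their chromosomes was followed in the blood mononuclear cells of mini pigs. The members were all probe sets annotated to exactly 1 symbol among CCNB1, CCNA2, CDC20, UBE2C, BIRC5, SKA2, STMN1, CKS2, TOP2A and RRM1. The rule found 12 probe sets for the 10 genes, out of 23999 on the array. UBE2C and SKA2 have 2 probe sets each, and the brighter one stands for the gene in every count of genes below. Of the 12 probe sets, 11 passed the filter on low values (log2 above 5 in at least 2 arrays), among 17240 that did. The 1 that failed is the dimmer UBE2C probe set (Ssc_27540_1_A1_at), which lay between 3.56 and 4.31 on the log2 scale over all 22 arrays.

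The arrays fall into 4 conditions, all of Mini Pig breed, and all values are log2 of RMA intensities. Pigs on high-fat chow with 20% beef tallow and a daily dose of resveratrol of 8 mg per kg gave 4 arrays at 9 months, pigs on high-fat chow (20% beef tallow) gave 4 at 9 months, and pigs on control chow (5% beef tallow) gave 4 at 9 months and 10 at time 0, before the diets. Each diet at 9 months had 2 females and 2 males, and time 0 had 5 of each. The pigs' ages are not given in the sources used here. The 22 arrays came from 20 pigs, because female 8 and male 25 of the control group were measured at both times. Each array is 1 blood sample of 1 pig, and 4 arrays per diet limit the precision. The study asked whether high-fat feeding, and resveratrol on top of it, shift gene expression in these cells.

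A cell that divides first copies its DNA in S phase and then separates the copies in mitosis. Cyclins switch cyclin-dependent kinases on at the right time, the kinetochore ties chromosomes to the spindle, and the anaphase-promoting complex marks cyclins and securin for destruction so that the cell can leave mitosis. Most lymphocytes and monocytes in blood are at rest, and transcripts of this programme are low in resting cells and rise when lymphocytes are activated or when precursors still divide. In RNA from a mixed fraction such as this, fewer dividing cells and less RNA per cell cannot be told apart.

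Some facts about the arrays touch the results. Poly-A spike-in RNAs are put into each sample ahead of the labelling. Their mean level was cut at its largest gap within each time, which gave 4 sets that the labels do not explain. At time 0 set A held 2 females (means 9.12 to 9.15 on the log2 scale) and set B the other 8 arrays (7.58 to 7.85). At 9 months set C held 7 arrays (8.39 to 9.02) and set D held 5 (9.93 to 10.6). Because the cut was made within each time, no set could hold arrays of both times, and set A lay just above set C. The sets thus cannot separate spike-in level from time. The diets at 9 months were spread unevenly. Set C held 3 control arrays, 3 with resveratrol and 1 high-fat array (male 23). Set D held 1 control array, 1 with resveratrol and 3 high-fat arrays. The high-fat male 23 stands apart in the member genes. It had the highest value of the 4 high-fat arrays in 9 of 10 genes, the largest difference between 3' and 5' actin controls of all arrays (3.09) and the highest mean of the erythroid markers at 9 months (8.96). Results of the member genes on the high-fat diet are therefore also given without it. The wider gene lists were not fitted again without it. T cell markers, the defining markers of the largest lymphocyte group, were bright in all conditions (mean of 10 genes between 9.91 and 10.8).

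**Figure D1:**
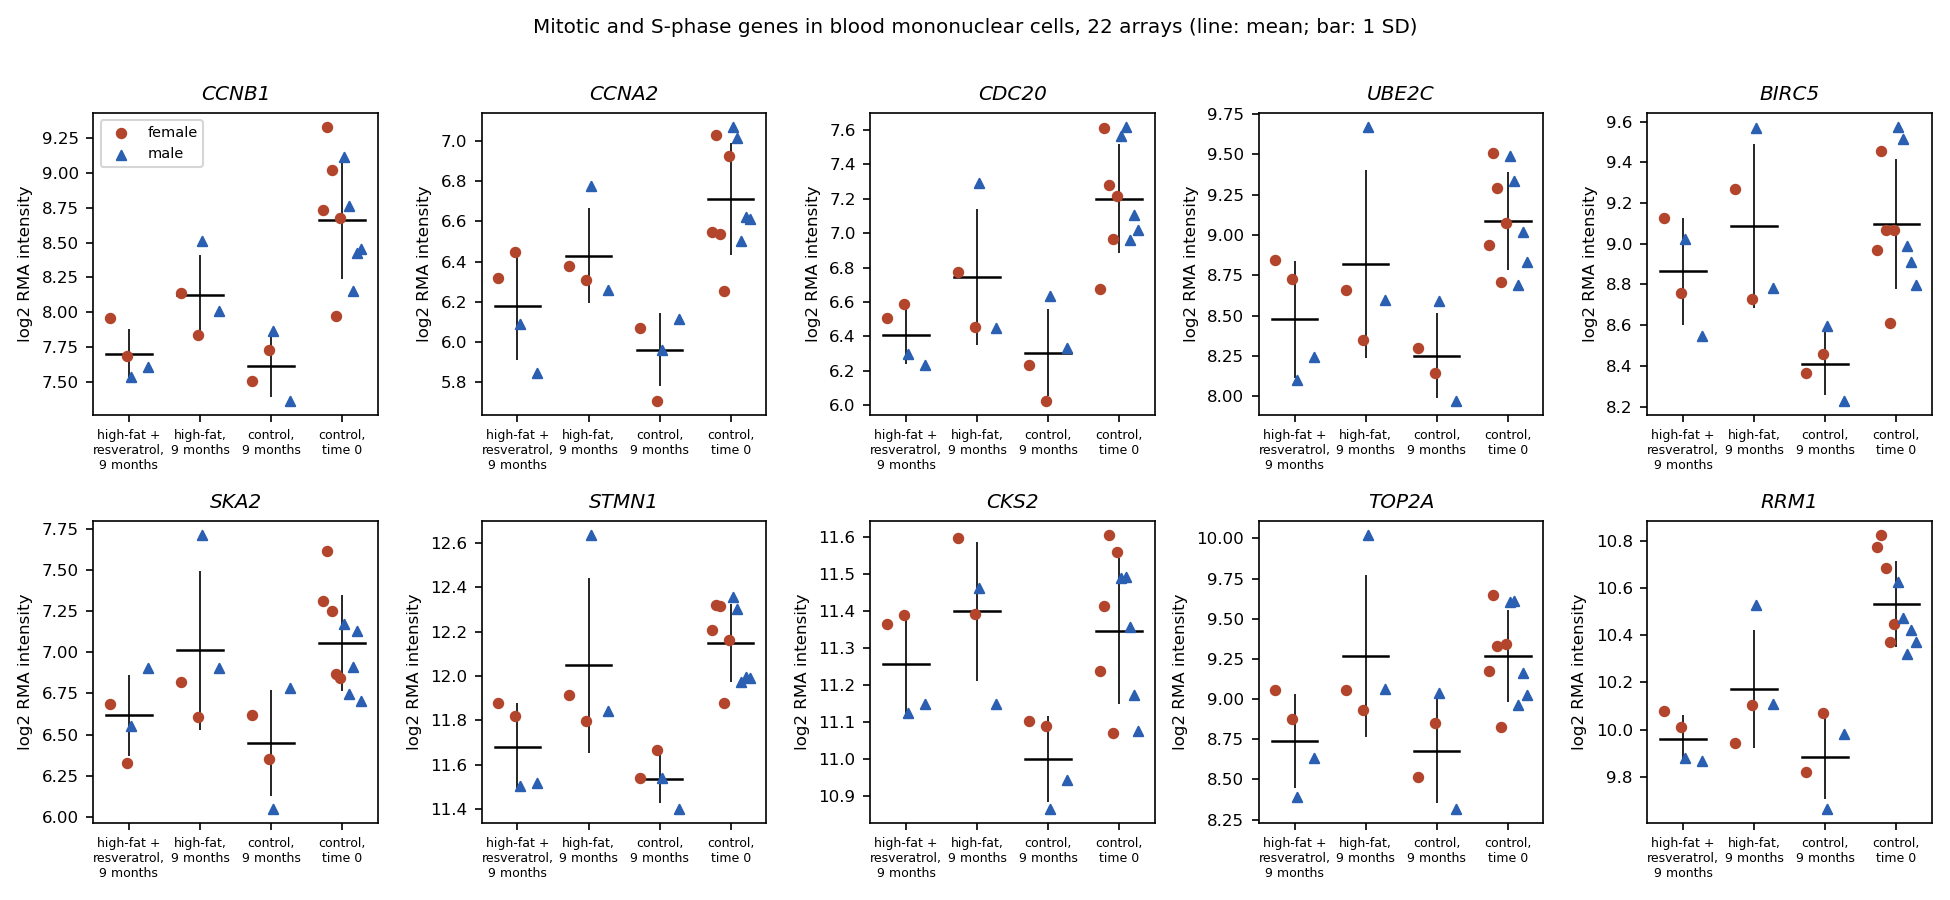
Log2 RMA intensity (vertical axes, cut to each gene's range) of the 10 genes in the 22 arrays, by condition (horizontal axes). Points are arrays, circles for females and triangles for males, lines are means and bars 1 SD (n = 4 at 9 months, 10 at time 0). The control arrays at 9 months lie lowest on average in all 10 panels, and 1 high-fat male, pig 23, lies well above the other high-fat arrays in most.

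Over 9 months on control chow, all 10 genes fell. The median log2 difference between the control arrays at 9 months and those at time 0 was -0.67, from -1.05 for CCNB1 to -0.35 for CKS2. Adjusted p-values are limma's, with Benjamini-Hochberg adjustment over the 17240 probe sets, and a gene is called under 0.05. In this comparison 10 of the 11 tested member probe sets were called lower, against 19.1% of all probe sets tested, and 49.2% of all probe sets had a positive difference. The share of probe sets called in either direction was 35.0%, so a large part of the array differed between the times. In 7 of the 10 genes every control array at 9 months lay below every array at time 0, against 8.64% of all probe sets.

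Both cyclins fell. CCNB1 encodes cyclin B1, which drives entry into mitosis with CDK1. It measured 7.50 and 7.73 in females 18 and 8 and 7.87 and 7.36 in males 16 and 25 at 9 months, against 7.98 to 9.33 (median 8.71) in the 10 arrays at time 0. The groups did not overlap, and the level at 9 months was 0.483 times that at time 0 (log2 difference -1.05, SE 0.19, adjusted p = 0.000333). CCNA2 encodes cyclin A2, which acts in S phase and up to early mitosis. It measured 6.07 and 5.70 in females 18 and 8 and 5.96 and 6.11 in males 16 and 25, against 6.25 to 7.07 (median 6.62) at time 0. All 4 arrays at 9 months lay below all 10 at time 0 here too (log2 difference -0.75, SE 0.15, adjusted p = 0.000596).

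The partners of the anaphase-promoting complex fell with them. CDC20 is the activator that lets the complex start anaphase. It measured 6.23 and 6.02 in females 18 and 8 and 6.64 and 6.33 in males 16 and 25 at 9 months, against 6.68 to 7.62 (median 7.16) at time 0. The ranges came close but did not overlap (log2 difference -0.90, SE 0.17, adjusted p = 0.000444). UBE2C is the ubiquitin-conjugating enzyme that works with the complex. It measured 8.30 and 8.15 in females 18 and 8 and 8.59 and 7.97 in males 16 and 25, against 8.69 to 9.51 (median 9.05) at time 0. Its groups were apart as well (log2 difference -0.84, SE 0.21, adjusted p = 0.00393).

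Among genes of the spindle and kinetochore, BIRC5 and STMN1 parted the times and SKA2 did not part them fully. BIRC5 encodes survivin, a subunit of the chromosomal passenger complex. It measured 8.36 and 8.46 in females 18 and 8 and 8.60 and 8.23 in males 16 and 25 at 9 months, against 8.61 to 9.57 (median 9.03) at time 0. The difference was -0.68 (SE 0.17, adjusted p = 0.00450). STMN1 encodes stathmin, which takes microtubules apart and is a long-known marker of growing leukocytes. It measured 11.54 and 11.66 in females 18 and 8 and 11.54 and 11.40 in males 16 and 25, against 11.88 to 12.36 (median 12.19) at time 0. The difference was -0.61 (SE 0.13, adjusted p = 0.00120). SKA2 is part of the SKA complex, which holds kinetochores on microtubule ends. Its brighter probe set measured 6.62 and 6.35 in females 18 and 8 and 6.05 and 6.78 in males 16 and 25, against 6.71 to 7.61 (median 7.02) at time 0. Male 25 at 9 months fell within the time 0 range (log2 difference -0.60, SE 0.19, adjusted p = 0.0159).

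The remaining genes act on kinases, on DNA strands and on nucleotides. CKS2, a small subunit that binds cyclin-dependent kinases, measured 11.10 and 11.09 in females 18 and 8 and 10.86 and 10.94 in males 16 and 25 at 9 months, against 11.07 to 11.61 (median 11.38) at time 0. Its groups overlapped at the lower end of time 0 (log2 difference -0.35, SE 0.10, adjusted p = 0.00917). TOP2A, the topoisomerase that untangles sister chromatids, measured 8.51 and 8.85 in females 18 and 8 and 9.04 and 8.32 in males 16 and 25, against 8.82 to 9.65 (median 9.25) at time 0. Of its 4 arrays at 9 months, 2 lay within the time 0 range (log2 difference -0.59, SE 0.19, adjusted p = 0.0219). RRM1, the large subunit of ribonucleotide reductase, which makes the building blocks of DNA, measured 9.82 and 10.07 in females 18 and 8 and 9.66 and 9.98 in males 16 and 25, against 10.32 to 10.83 (median 10.46) at time 0. RRM1 had the smallest adjusted p of the 10 genes (log2 difference -0.65, SE 0.11, adjusted p = 0.000137). TOP2A was not called without the control female 18 at 9 months (-0.54, adjusted p = 0.0698) or male 25 at 9 months (-0.46, adjusted p = 0.107), and SKA2 was not called without female 8 (-0.57, adjusted p = 0.0503) or male 16 (-0.46, adjusted p = 0.0941).

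The pair of pigs measured at both times, by the labels, gave the same direction in most genes. In female 8 all 10 genes were lower at 9 months, with a median difference of -1.13, and CCNB1 measured 7.73 at 9 months and 9.33 at time 0. In male 25, 9 of 10 genes were lower, with a median of -0.58. The exception was SKA2, with 6.78 at 9 months and 6.71 at time 0. Within each sex, all 10 genes were lower at 9 months, with medians of -0.68 in females and -0.69 in males, and 7 genes were called lower in females, against 13.1% of all probe sets, and 8 in males, against 11.8%.

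The rest of the cell cycle machinery was followed in 4 lists, without the members. Of 25 measured mitosis genes, 17 fell with time, none rose, and the median difference was -0.56, against -0.0064 over all probe sets. DLGAP5, a spindle assembly protein, differed by -1.24 (SE 0.22, adjusted p = 0.000230), NUSAP1, which bundles spindle microtubules, by -1.13 (SE 0.26, adjusted p = 0.00198), MELK, a kinase of dividing cells, by -1.10 (SE 0.21, adjusted p = 0.000438) and NUF2, a kinetochore subunit, by -1.04 (SE 0.20, adjusted p = 0.000433). SMC4, a condensin subunit, had the smallest adjusted p of the list (-0.97, adjusted p = 1.75e-05). KPNA2, BUB3, NDC80, RACGAP1, CCNB2, PTTG1, CDC25B, TACC3, SKA1, CDCA3, CENPF and CDKN3 also fell, by 0.45 for CDC25B to 0.97 for CCNB2. Of 24 genes of DNA replication and S phase, 10 fell and 2 rose, with a median of -0.37. Those that fell included the single-strand binding subunits RPA2 (-0.74, adjusted p = 1.78e-05) and RPA1 (-0.62, adjusted p = 0.000196), the helicase subunits MCM3 (-0.73, adjusted p = 0.00202) and MCM5 (-0.64, adjusted p = 0.00899), and TYMS, which makes thymidylate (-0.49, adjusted p = 0.0138). RFC5, POLE2, RNASEH2A, GINS4 and RPA3 fell too. The 2 that rose were PCNA, the sliding clamp that also serves DNA repair (0.39, adjusted p = 0.0236), and ORC6, of the origin recognition complex (0.33, adjusted p = 0.0354).

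Regulators ahead of S phase and brakes of the cycle held genes of both directions. Over all probe sets 15.8% were called higher in this comparison. Of 4 measured G1 regulators, 2 rose and none fell. These were CCND2, cyclin D2, which links growth signals to the cycle (1.28, SE 0.16, adjusted p = 5.88e-06), and E2F3, a transcription factor of S phase entry (1.02, SE 0.15, adjusted p = 3.60e-05). Of 16 genes of arrest and quiescence, 4 rose and 1 fell, and the median over the list was 0.077. GADD45A (1.44, SE 0.20, adjusted p = 2.20e-05) and GADD45B (1.34, SE 0.17, adjusted p = 6.83e-06) respond to stress and DNA damage. CDKN1A, the kinase inhibitor p21, differed by 0.79 (SE 0.15, adjusted p = 0.000519) and BTG2, an antiproliferative gene, by 0.72 (SE 0.19, adjusted p = 0.00667). RBL2, a member of the retinoblastoma family, fell by 0.49 (SE 0.10, adjusted p = 0.000877).

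**Figure D2:**
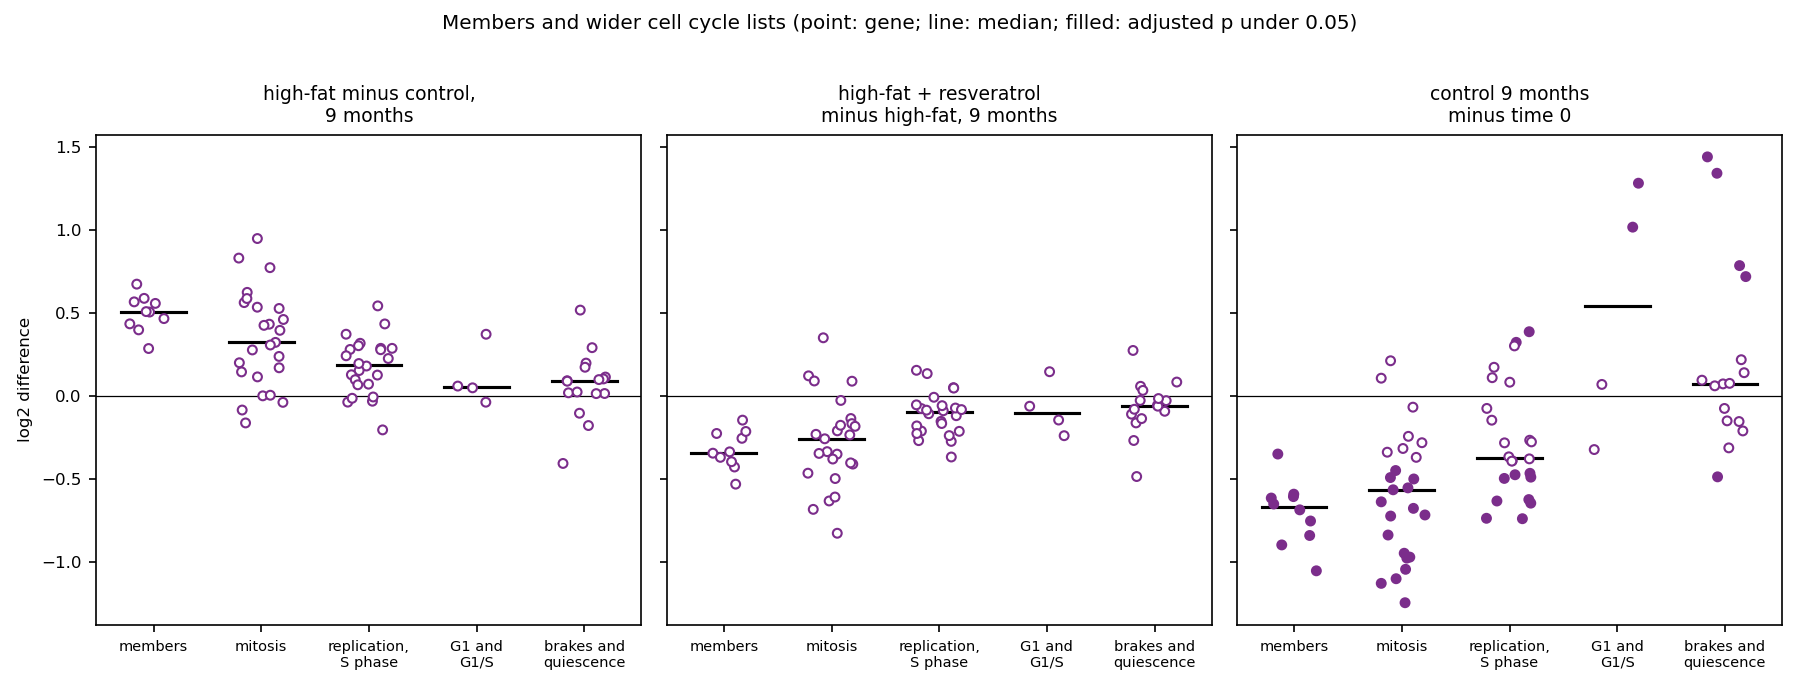
Log2 difference per gene (vertical axis) for the 10 members and 4 wider cell cycle lists (horizontal axis) in 3 comparisons. Lines are medians, and filled points have an adjusted p under 0.05. Filled points appear only in the comparison of times, where 10 of 10 members and 17 of 25 mitosis genes are filled below 0 and 2 of 4 G1 genes and 4 of 16 brake genes are filled above it.

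Some markers of cell types moved with time as well. The counts below stand against 19.1% of all probe sets called lower and 15.8% called higher, and some lie near these shares. Of 10 T cell genes, 6 fell and none rose, and their mean lay between 10.1 and 10.2 at 9 months and between 10.4 and 10.8 at time 0. CD3G fell by 0.88 (adjusted p = 6.91e-06) and CD8A by 0.85 (adjusted p = 2.97e-05). Of 6 erythroid genes 4 fell, namely AHSP (-1.90), HBM (-1.63), ALAS2 (-1.27) and HBB (-0.81), and their mean lay between 7.15 and 8.28 at 9 months and between 7.92 and 9.23 at time 0. Of 4 genes of NK and cytotoxic cells 2 fell (GNLY and GZMH), the measured B cell gene CD79B fell by 0.70, and the plasma cell gene JCHAIN fell by 0.50 while XBP1 rose by 0.45. Of 4 genes of activated T cells, CD38 fell by 0.72. Of 11 monocyte genes, 3 rose (CD163, FCER1G and CD86), and their mean lay between 9.35 and 9.75 at 9 months and between 8.97 and 9.64 at time 0. None of the measured genes of granulocytes (5), platelets (5) and progenitors (4) was called. The part of these cell types in the fall of the member genes was not tested. Spike-in levels lay closest between the 3 control arrays of set C at 9 months (8.39 to 9.02) and the 2 arrays of set A at time 0 (9.12 to 9.15). Between these, all 10 genes were lower at 9 months, with a median of -0.68. The levels still did not overlap, both time 0 arrays are females, and these arrays are part of the comparison above. The subset cannot separate spike-in level from time, and the part of spike-in level was not tested.

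On the high-fat diet, all 10 genes measured higher at 9 months than on control chow, but none was called. This comparison shares its 4 control arrays with the comparison of times. The median log2 difference was 0.51, from 0.29 for RRM1 to 0.68 for BIRC5, against a median of -0.0045 over all probe sets, of which 48.8% were positive. No probe set on the array was called in this comparison in either direction (0% of 17240), and the smallest adjusted p of a member gene was 0.326. At an unadjusted p under 0.05, all 11 tested member probe sets were higher, against 3.89% of all probe sets (670 higher, and 892 lower). In 5 of the 11, all high-fat arrays lay above all control arrays, against 2.08% of all probe sets.

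The 4 genes without overlap came from different steps of the cycle. BIRC5 measured 9.27 and 8.73 in high-fat females 27 and 30 and 9.57 and 8.78 in males 23 and 26, against 8.23 to 8.60 in the 4 control arrays. The high-fat level was 1.60 times the control level (log2 difference 0.68, SE 0.21, adjusted p = 0.326). STMN1 measured 11.92 and 11.79 in high-fat females 27 and 30 and 12.64 and 11.84 in males 23 and 26, against 11.40 to 11.66 in control arrays. Male 23 lay far above the other high-fat arrays (log2 difference 0.51, SE 0.16, adjusted p = 0.326). CKS2 measured 11.60 and 11.39 in females 27 and 30 and 11.46 and 11.15 in males 23 and 26, against 10.86 to 11.10 in control arrays. CKS2 was the gene in which male 23 was not the highest (log2 difference 0.40, SE 0.12, adjusted p = 0.326). CCNA2 measured 6.38 and 6.31 in females 27 and 30 and 6.78 and 6.26 in males 23 and 26, against 5.70 to 6.11 in control arrays. Its difference was 0.47 (SE 0.18, adjusted p = 0.406).

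In the other genes, 1 or more high-fat arrays lay within the control range. TOP2A measured 9.06 and 8.93 in high-fat females 27 and 30 and 10.02 and 9.06 in males 23 and 26, against 8.32 to 9.04 in control arrays. Male 23 set the upper end by a wide margin, and its value also lay above all time 0 arrays (log2 difference 0.59, SE 0.23, adjusted p = 0.429). UBE2C measured 8.66 and 8.35 in females 27 and 30 and 9.67 and 8.60 in males 23 and 26, against 7.97 to 8.59 in control arrays. SKA2, by its brighter probe set, measured 6.82 and 6.61 in females 27 and 30 and 7.71 and 6.90 in males 23 and 26, against 6.05 to 6.78 in control arrays. Both genes had male 23 on top and a female within the control range (log2 differences 0.57, SE 0.25, and 0.56, SE 0.22). CCNB1 measured 8.14 and 7.84 in females 27 and 30 and 8.51 and 8.01 in males 23 and 26, against 7.36 to 7.87 in control arrays. CDC20 measured 6.78 and 6.46 in females 27 and 30 and 7.29 and 6.45 in males 23 and 26, against 6.02 to 6.64 in control arrays. RRM1 measured 9.94 and 10.10 in females 27 and 30 and 10.53 and 10.11 in males 23 and 26, against 9.66 to 10.07 in control arrays. These 3 genes differed by 0.51 (SE 0.23), 0.44 (SE 0.20) and 0.29 (SE 0.13), with adjusted p-values of 0.521, 0.534 and 0.515.

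Without male 23 the median difference between the diets was 0.32, still with all 10 genes positive, from 0.15 for RRM1 to 0.52 for BIRC5. The 3 high-fat arrays left are all in spike-in set D, while 3 control arrays are in set C. Diet and set are thus partly tied in that comparison. Within the sexes all 10 genes were positive in both, with a median of 0.34 in females and 0.70 in males. Within spike-in set C, where male 23 is the single high-fat array against 3 control arrays, the median was 1.02, and within set D, with 3 high-fat arrays against 1 control array, it was 0.44, with 9 of 10 genes positive.

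**Figure D3:**
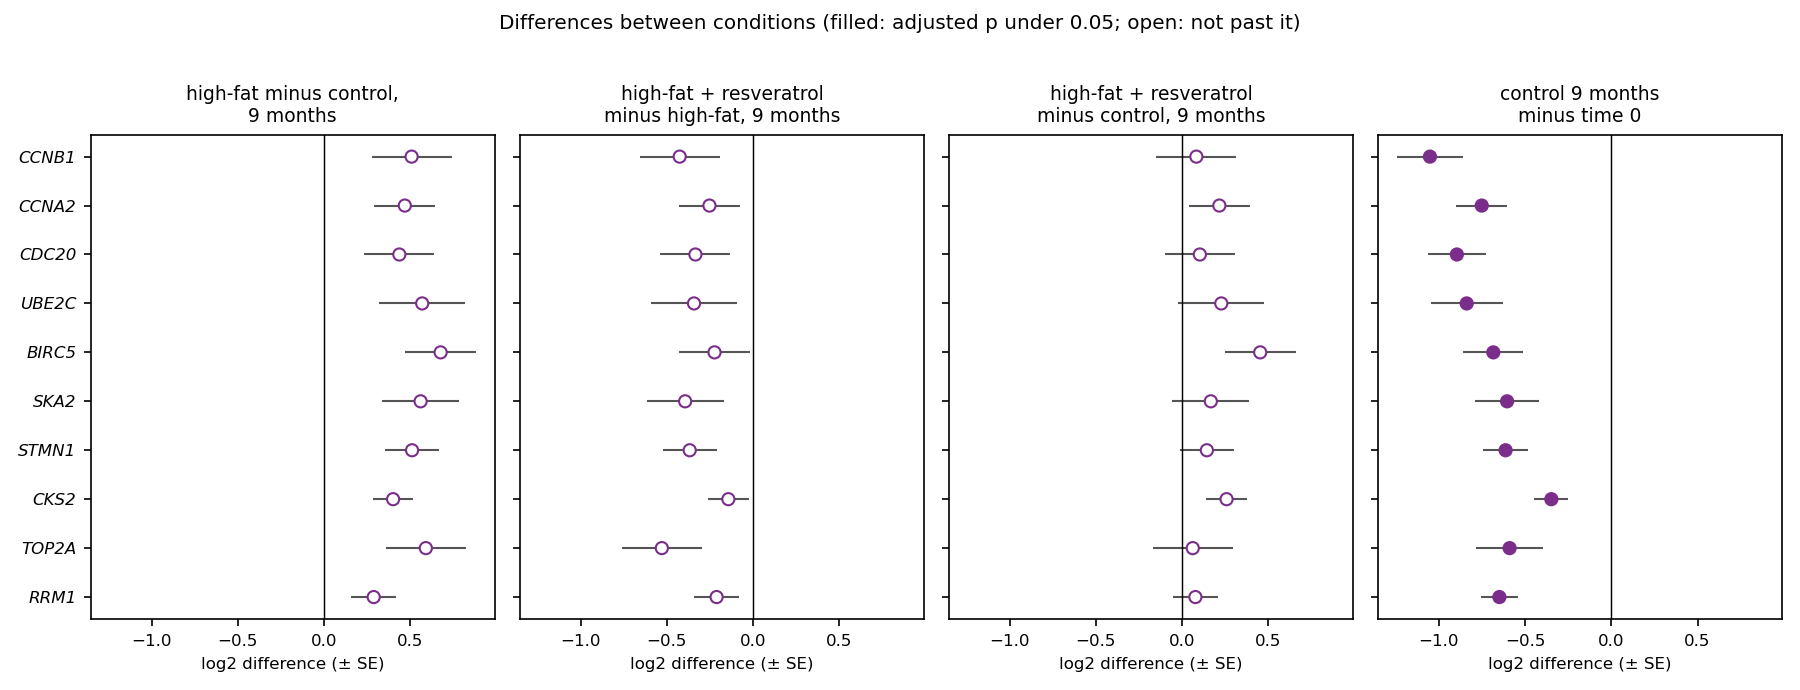
Log2 difference per gene (horizontal axes, bars are SE) in the 3 diet comparisons at 9 months and in the control diet over time. All 10 genes lie right of 0 for high-fat minus control, left of 0 for high-fat with resveratrol minus high-fat, and left of 0 for control at 9 months minus time 0, the panel in which all points are filled (adjusted p under 0.05).

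The wider mitosis list ran alongside. Of 25 genes 22 were positive on the high-fat diet, with a median of 0.33, and 10 had an unadjusted p under 0.05, all higher, but 0 were called. Male 23 stood apart here too, with a mitosis mean of 8.20. That mean was 7.77 and 7.60 in high-fat females 27 and 30 and 7.68 in male 26, against 7.36 to 7.60 in control arrays. NUF2 differed by 0.95 (adjusted p = 0.258), CENPF, a kinetochore protein, by 0.78 (adjusted p = 0.366) and NDC80, the partner of NUF2, by 0.63 (adjusted p = 0.380). Of 24 replication genes 19 were positive with a median of 0.19, led by RPA2 (0.32, adjusted p = 0.406), RPA3 (0.54, adjusted p = 0.441) and MCM3 (0.44, adjusted p = 0.524). The medians were 0.057 over 4 G1 genes and 0.093 over 16 brake genes, where WEE1, a kinase that holds back entry into mitosis, differed by 0.52 (adjusted p = 0.529). All 11 monocyte genes were negative on the high-fat diet with a median of -0.38 (0 called), and their mean lay between 8.88 and 9.32 on the high-fat diet and between 9.35 and 9.75 on the control diet. The T cell mean lay between 10.1 and 10.4 on the high-fat diet and between 10.1 and 10.2 on the control diet, the plasma cell mean between 9.19 and 9.69 against 9.12 and 9.29, the erythroid mean between 7.41 and 8.96 against 7.15 and 8.28, and the platelet mean between 8.17 and 9.21 against 6.26 and 9.20 (median difference 0.37, 4 of 5 genes positive). Their part in the higher member values was not tested.

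With resveratrol added to the high-fat diet, all 10 genes measured lower than on the high-fat diet alone, and again none was called. This comparison and the one above share the 4 high-fat arrays. The median log2 difference was -0.34, from -0.53 for TOP2A to -0.14 for CKS2, against 0.016 over all probe sets, of which 54.2% were positive. No probe set was called on the array (0% of 17240), and the smallest adjusted p of a member gene was 0.736. At an unadjusted p under 0.05, 3 of 11 member probe sets were lower (STMN1, TOP2A and the dimmer SKA2 probe set), against 3.42% of all probe sets. In 1 of 11, the dimmer SKA2 probe set, all resveratrol arrays lay below all high-fat arrays, against 1.97%.

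TOP2A measured 9.06 and 8.88 in females 21 and 22 and 8.39 and 8.63 in males 4 and 5 with resveratrol, against 8.93 to 10.02 in the high-fat arrays. Female 21 lay within the high-fat range and the other 3 arrays below it (log2 difference -0.53, SE 0.23, adjusted p = 0.737). STMN1 measured 11.88 and 11.82 in females 21 and 22 and 11.50 and 11.52 in males 4 and 5, against 11.79 to 12.64 in the high-fat arrays. Here both females lay within the high-fat range and both males below it (log2 difference -0.37, SE 0.16, adjusted p = 0.736). CCNB1 measured 7.96 and 7.69 in females 21 and 22 and 7.53 and 7.61 in males 4 and 5, against 7.84 to 8.51 in the high-fat arrays. Only female 21 reached into the high-fat range (log2 difference -0.43, SE 0.23, adjusted p = 0.795). UBE2C measured 8.84 and 8.73 in females 21 and 22 and 8.10 and 8.24 in males 4 and 5, against 8.35 to 9.67 in the high-fat arrays. CDC20 measured 6.51 and 6.59 in females 21 and 22 and 6.30 and 6.23 in males 4 and 5, against 6.45 to 7.29. In both, the females lay within the high-fat range and the males below it. CCNA2 measured 6.32 and 6.45 in females 21 and 22 and 6.09 and 5.85 in males 4 and 5, against 6.26 to 6.78, and RRM1 measured 10.08 and 10.01 in the females and 9.88 and 9.87 in the males, against 9.94 to 10.53. BIRC5 measured 9.13 and 8.76 in females 21 and 22 and 9.02 and 8.55 in males 4 and 5, against 8.73 to 9.57. CKS2 measured 11.36 and 11.39 in the females and 11.12 and 11.15 in the males, against 11.15 to 11.60. SKA2 was the gene in which a male was highest, with 6.69 and 6.32 in the females and 6.55 and 6.91 in the males, against 6.61 to 7.71.

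Without the high-fat male 23 the median difference with resveratrol was -0.14, with all 10 genes still negative and the largest, CCNB1, at -0.28. The high-fat arrays left are all in set D, while 3 resveratrol arrays are in set C. With array weights and all arrays the median was -0.15. Within females the median was -0.042, with 3 of 10 genes positive, and within males it was -0.59, with none positive. Within spike-in set C, with male 23 as the single high-fat array, the median was -0.91, and within set D, where 1 resveratrol array stood against 3 high-fat arrays, it was 0.016 with 6 of 10 genes positive. Of 25 mitosis genes 4 were positive, the median was -0.26, and 8 had an unadjusted p under 0.05, all lower (NUF2 -0.83, DLGAP5 -0.68 and SMC4 -0.41, each with an adjusted p of 0.728). These values include male 23. The mitosis mean lay between 7.35 and 7.79 with resveratrol, against 8.20 in male 23 and 7.60 to 7.77 in the other high-fat arrays. Of 24 replication genes 4 were positive with a median of -0.096, led by PCNA (-0.27, adjusted p = 0.812). All 11 monocyte genes were positive with resveratrol (median 0.15, 0 called), with a mean between 8.87 and 9.66 against 8.88 and 9.32 on the high-fat diet. All 5 platelet genes were positive with a larger median (0.63, 0 called), and their mean lay between 8.58 and 9.78 with resveratrol and between 8.17 and 9.21 on the high-fat diet. The monocyte mean parted the resveratrol arrays by sex, with 8.87 and 8.99 in females 21 and 22 and 9.62 and 9.66 in males 4 and 5. The T cell mean parted them the other way, with 10.40 and 10.39 in the females and 9.96 and 9.91 in the males. The high-fat arrays parted by sex in the same directions. Their monocyte mean was 8.94 and 8.88 in females 27 and 30 and 9.32 and 9.10 in males 23 and 26. Their T cell mean was 10.28 and 10.37 in the females and 10.14 and 10.17 in the males. In the control arrays at 9 months the sexes overlapped in both means. The part of these cells in the member values was not tested.

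Against the control diet, pigs on the high-fat diet with resveratrol had no member called. All 10 genes were positive (51.8% of all probe sets were), with a median of 0.15 and a range from 0.061 for TOP2A to 0.45 for BIRC5, and 0% of 17240 probe sets were called (adjusted p = 1.00 for each member after rounding). At an unadjusted p under 0.05 the count was 2 of 11 (BIRC5 and CKS2), against 1.95% of all probe sets. CKS2 was the 1 gene without overlap, with 11.12 to 11.39 with resveratrol and 10.86 to 11.10 in control arrays (log2 difference 0.26, SE 0.12), against 0.905% of all probe sets. For CCNB1 the difference was 0.082 (SE 0.23), an error that leaves room for a difference as large as that between the high-fat and control diets. Within females all 10 genes were positive with a median of 0.28, and within males 5 of 10 were, with a median of -0.0023. The median was 0.088 without the resveratrol female 21 and 0.24 with array weights. Within spike-in set C, with 3 arrays on each diet, it was 0.073 with 8 of 10 genes positive, and within set D, with 1 array on each, it was 0.45 with 9 of 10 positive. Platelet genes were the cell type list with the largest median in this comparison (1.07, 4 of 5 positive, 0 called), and their mean lay between 8.58 and 9.78 with resveratrol and between 6.26 and 9.20 on the control diet, where female 8 was the lowest. Monocyte genes had a median of -0.30, with 2 of 11 positive. Their part in the member values was not tested. This comparison shares its control arrays and its resveratrol arrays with those above.

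The order of the 4 condition means was the same in 8 of 10 genes, with time 0 highest, then the high-fat diet, then high-fat with resveratrol, then the control diet at 9 months. In the other 2, TOP2A and CKS2, the high-fat mean lay above time 0, by less than the last printed decimal for TOP2A (both 9.27) and at 11.40 against 11.35 for CKS2. The high-fat means include male 23. In TOP2A it measured 10.02, and the other high-fat arrays, at 8.93 to 9.06, all lay below the time 0 mean. Arrays of neighbouring conditions in this order overlapped in all genes, except that all CKS2 arrays with resveratrol lay above all those of the control diet at 9 months. All resveratrol arrays lay below all time 0 arrays in 3 genes (CCNB1, CDC20 and RRM1), against 7.73% of all probe sets. All high-fat arrays did so in 0 genes, against 8.51%.

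The SKA2 probe sets disagreed on time and had the same sign in the diet comparisons. The dimmer one (Ssc_27652_1_A1_at) lay between 5.45 and 6.40 over the 22 arrays, close to the filter. It measured 5.93 and 6.10 in high-fat females 27 and 30 and 6.40 and 6.31 in high-fat males 23 and 26, and 5.49 to 5.80 in the 4 arrays with resveratrol. The control arrays at 9 months lay between 5.55 and 5.61 and those at time 0 between 5.45 and 6.02. All 4 high-fat arrays thus lay above all control and all resveratrol arrays of the same time. The high-fat diet differed from the control diet by 0.60 (SE 0.12, adjusted p = 0.179) and resveratrol from the high-fat diet by -0.55 (SE 0.12, adjusted p = 0.728). With 1 mean for each condition and sex (adjusted p = 0.0473) or with array weights (adjusted p = 0.0276), the high-fat difference of this probe set was called. Without male 23 it was 0.52 (adjusted p = 0.379). The brighter probe set differed by 0.56 (adjusted p = 0.444) between the high-fat and control diets. With resveratrol it differed by -0.39 (adjusted p = 0.805) from the high-fat diet, and its arrays overlapped in both comparisons. With time the dimmer probe set was not called (-0.091, SE 0.10, adjusted p = 0.523), where the brighter one fell by 0.60. The r between the pair over 22 arrays was 0.45, and which transcript each one reads is not given in the files.

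**Figure D4:**
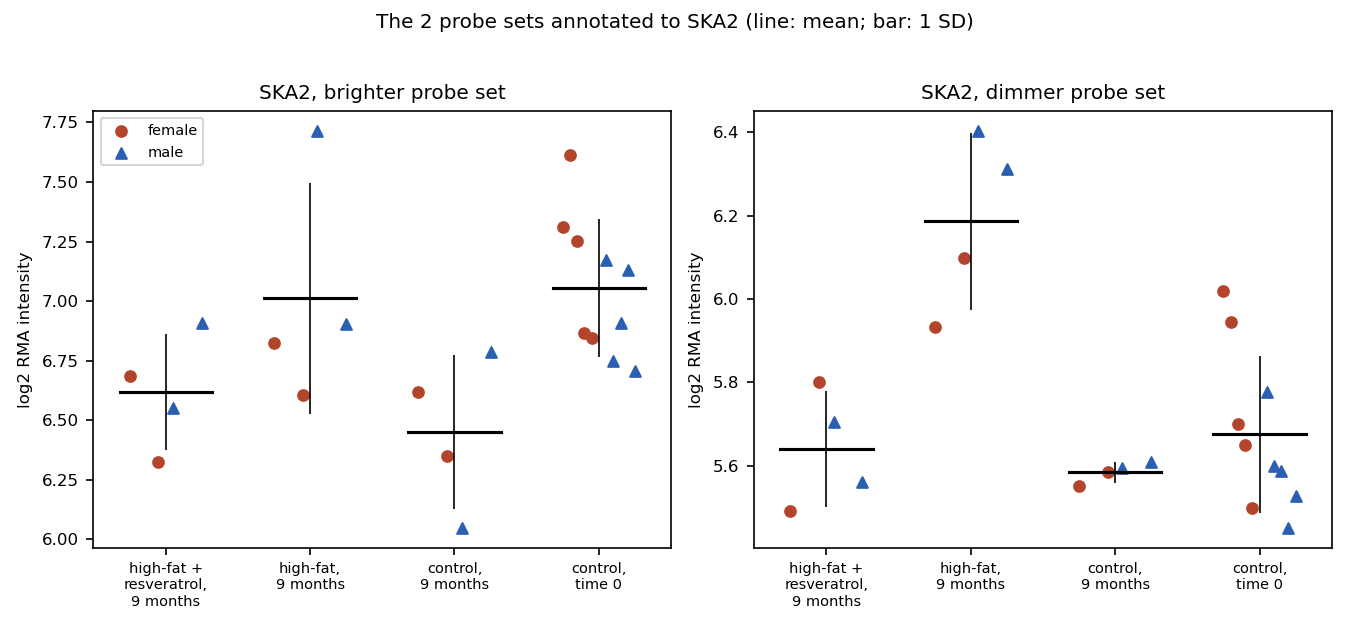
Log2 RMA intensity (vertical axes, on different ranges) of both SKA2 probe sets by condition (horizontal axes). Points are arrays, circles for females and triangles for males, lines are means and bars 1 SD. In the dimmer probe set the 4 high-fat arrays sit at 5.93 to 6.40, above the 5.49 to 5.80 of the resveratrol arrays and the 5.55 to 5.61 of the control arrays at 9 months.

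No member gene was called between females and males. At time 0 the difference of females from males had a median of 0.043, with 6 of 10 genes positive (51.9% of all probe sets were) and 0 of 11 probe sets called, against 1.07% of all probe sets. SKA2 had the largest difference (0.24, SE 0.18, adjusted p = 0.541), with a mean of 7.18 in females and 6.93 in males. RRM1 averaged 10.6 in females and 10.4 in males (0.18, SE 0.11, adjusted p = 0.427). At 9 months the median over the diets was -0.0066, with 3 of 10 genes positive (54.8% of all probe sets were) and 0 of 11 called, against 6.01% of all probe sets. Its sign turned with single arrays, from -0.12 without the high-fat male 26 to 0.12 without the high-fat male 23. CKS2 was the 1 gene with an unadjusted p under 0.05 (12.2% of all probe sets were higher at that p), with a mean of 11.3 in females and 11.1 in males (0.21, SE 0.10, adjusted p = 0.229). Cell type markers did differ between the sexes at 9 months. Called lower in females were 5 of 11 monocyte, 3 of 6 erythroid and 2 of 5 granulocyte genes, against 2.94% of all probe sets. Their medians were -0.52, -0.93 and -0.71. Of 10 T cell genes 1 was called higher, as was the measured B cell gene, against 3.07% of all probe sets. The part of these cells in the member values was not tested.

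The sex difference of the diet effects was tested directly. The high-fat effect was smaller in females than in males in 9 of 10 genes (median of female minus male effect -0.35, with 49.3% of all probe sets positive), and 0 of 11 probe sets were called, against 0.00580% of all probe sets. STMN1 had the smallest p, with a high-fat effect of 0.25 in females and 0.77 in males (difference -0.51, SE 0.28, adjusted p = 0.459). The resveratrol effect was higher in females in all 10 genes (median 0.53, with 55.1% of all probe sets positive), and 0 of 11 were called, against 0.0116%. At an unadjusted p under 0.05, 3 were higher (UBE2C, STMN1 and TOP2A), against 3.70% of all probe sets. For TOP2A the effect of resveratrol was -0.027 in females and -1.03 in males (difference 1.00, SE 0.43, adjusted p = 0.842). For STMN1 it was -0.0071 in females and -0.73 in males (difference 0.72, SE 0.28, adjusted p = 0.841). Without the high-fat male 23 the median for the high-fat effect was -0.029 and that for the resveratrol effect 0.27, and without the other high-fat male, pig 26, they were -0.60 and 0.81.

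The 10 genes varied together from array to array. Over the 22 arrays the 45 pairs of genes had a median Pearson r of 0.79, from 0.46 to 0.95. After the 8 means of condition and sex were taken out, the median was 0.69, from 0.34 to 0.94. These are descriptions, since the genes of an array share its RNA, its labelling and its cell mix. CKS2 and SKA2 followed the others least over the 22 arrays (median r of 0.64 and 0.62 with the other 9 genes), and UBE2C most (0.87). At time 0, female 8 had the highest value in 5 genes and male 11 in 3, and female 17 the lowest in 6. The control arrays at 9 months went both ways, with male 16 highest in 5 genes and lowest in 3 and male 25 highest in 2 and lowest in 5.

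**Figure D5:**
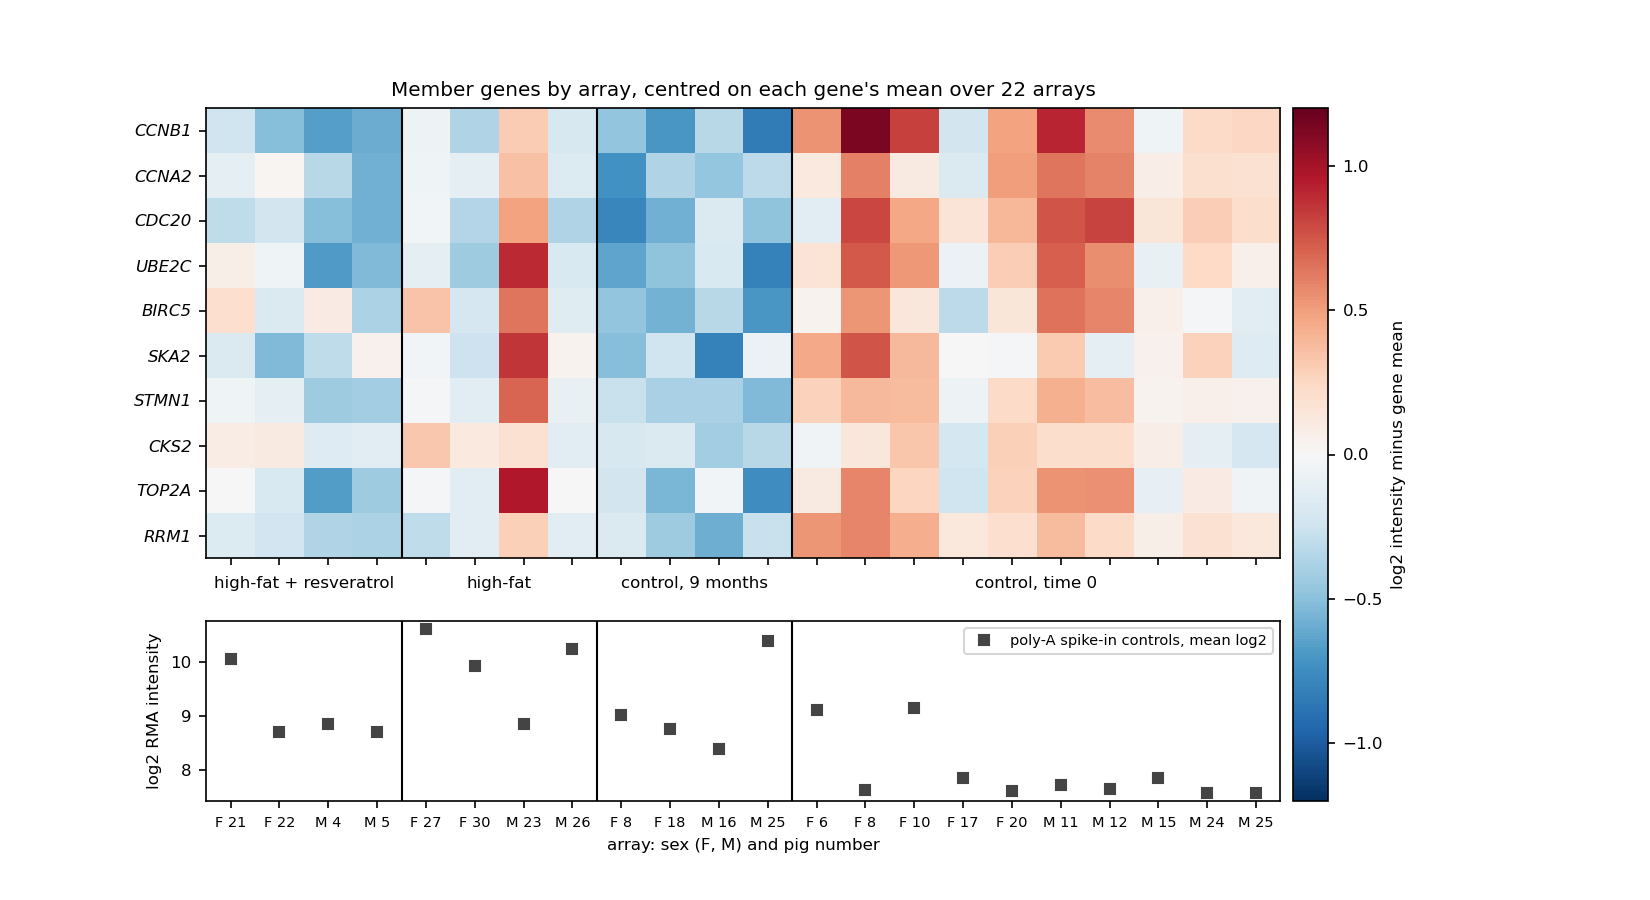
Upper panel: log2 intensity of the 10 genes (rows) in 22 arrays (columns, sex and pig number), minus each gene's mean, in colour. Lower panel: mean log2 intensity of the poly-A spike-in controls in the same arrays, between 7.58 and 10.6. High-fat male 23, time 0 females 8 and 10 and time 0 male 11 lie above the mean in all rows, while columns such as those of the resveratrol females hold both colours.

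The genes whose pattern was most like the mean member profile were chosen by Pearson r among 8415 other probe sets with 1 symbol. Over the 22 arrays these were EZH2, a histone methyltransferase (r = 0.97), CCNB2, cyclin B2 (0.95), ENOSF1 (0.95), NDC80 (0.94), MARCH6 (0.93), H2AFZ, a histone variant (0.93), MELK (0.92), DNAJC9 (0.92), NUSAP1 (0.91) and KPNA2 (0.91). In the human genome ENOSF1 and TYMS overlap in opposite directions. EZH2 differed by 0.57 between the high-fat and control diets, by -0.44 between resveratrol and high-fat, and by -0.72 between 9 months and time 0. Because EZH2 was chosen by its likeness to the members in these same arrays, its differences follow theirs by choice. After the 8 means were taken out, CCNB2 (0.94), EZH2 (0.93), NEK2, a centrosome kinase (0.92), NDC80 (0.92), CDCA3 (0.90), SAA2 (0.89), MARCH6 (0.89), MELK (0.89), FANCD2, of DNA crosslink repair (0.89), and CENPF (0.89) were closest. EZH2, CCNB2, NDC80, MARCH6 and MELK were in both lists.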

How the data were processed

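RNA from blood mononuclear cells was labelled with biotin (One-Cycle protocol, 4 µg total RNA) and hybridised to Affymetrix porcine arrays, per the labels' protocols. The submitters' processing notes name GCOS, Affymetrix Expression Console 1.1 and RMA. What the authors deposited is 1 RMA intensity per probe set and array, linear in scale and already normalized between arrays. RMA evens out the arrays' distributions, so a change in most genes at once would not be seen. The log2 was taken here after a floor of 1. The 124 control probe sets were set aside, and 17240 of 23999 others passed log2 above 5 in at least 2 arrays. Symbols came from the array's annotation (10069 probe sets with 1 symbol, 198 with several, 13732 with none), and all member symbols matched a gene table of assembly Sscrofa11.1, used for names alone. No sequence was printed, since none of the members' promoters or proteins was analysed here.

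Comparisons used limma 3.58.1 in R 4.3.3 (lmFit and eBayes, two-sided, adjusted over all 17240 probe sets, threshold 0.05), with statmod 1.5.0 for block fits. Diet and time were fitted on all 22 arrays with an additive term for sex, and sex comparisons with 8 means of condition and sex. The fits were also run on simulated data with independent noise for each probe set. Variation shared between genes, as the members show, was not simulated. Named genes are all member probe sets and a part of the genes of 4 cell cycle and 10 cell type lists. The list genes were taken from those that passed or had the smallest p in a comparison. Not every list gene that passed is named, and none is named for the comparisons of the sexes. The members and lists were chosen with earlier results of these data known. No call was made on the lists as such. Pigs 8 and 25 pair the times by the labels. Their profiles, centred on their groups, correlated at -0.056 and 0.199, so the pairing rests on the labels, and it was tried as a block. Alternatives were the block, other designs, filters, array weights, centring, spike-in sets, actin controls, the median of a gene's probe sets and leaving out each array.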

Additional observations from a re-analysis of the deposited data

Results flagged for a closer look

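Groups of 4 and more arrays were searched for a single array far from the others in the member genes. Of 48 groups tested, 2 held one, where chance gives about 1 in 20. Both were the high-fat male 23. STMN1 measured 12.64 there, against 11.79 to 11.92 in the other high-fat arrays, and TOP2A measured 10.02, against 8.93 to 9.06.

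All 12 member probe sets were searched for opposite directions in females and males without overlap, and a pair of genes met this rule. With 2 arrays on each side, groups often part by chance. The share over all probe sets was not counted, so the pair is a description only. UBE2C was higher with resveratrol than on the high-fat diet alone in females (8.84 and 8.73 against 8.66 and 8.35) and lower in males (8.10 and 8.24 against 9.67 and 8.60), and the effects differed by 1.24 (SE 0.45). That difference was tested and not called (limma, adjusted p = 0.837). CDC20 was higher with resveratrol than on the control diet in females (6.51 and 6.59 against 6.23 and 6.02) and lower in males (6.30 and 6.23 against 6.64 and 6.33), and the effects differed by 0.64. This difference was not tested.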

How the results depend on the processing

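The fall over time was called in 10 members under all alternatives other than array weights and the leaving out of single arrays, where it was 9 or 10. The number tested was 11 probe sets, but 12 without the filter and 10 with the median of a gene's probe sets. With array weights SKA2 was not called (-0.38, adjusted p = 0.0668). With pig number as a replicate block, 10 were called and the pairing changed no call of a member gene in any comparison (the block's correlation was -0.18 in the diet and time fits). The spike-in sets were not added as a term to the comparison of times, since each set was defined within 1 time. In the diet comparisons no member was called, except that 1 probe set (the dimmer of SKA2) was called for the high-fat diet with 8 means (1 of 11) and with array weights (1 of 11). Against the control diet, resveratrol gave SKA2 at -0.025 with array weights, and TOP2A ran from -0.071 to 0.19 when single arrays were left out (without control male 25 and without resveratrol female 21 it was negative). CDC20 in the sex comparison at 9 months ran from -0.25 to 0.031, the highest without high-fat male 23. When single arrays were left out, the median over the members ran between the sexes from -0.026 to 0.13 at time 0 (lowest without female 8, highest without female 17) and from -0.12 to 0.12 at 9 months, so neither has a settled direction. With array weights the median for resveratrol was -0.15 against the high-fat diet and 0.24 against the control diet. The sex difference of the high-fat effect had a median of -0.037 with spike-in sets as a term, and between -0.60 and -0.029 when single arrays were left out, and that of the resveratrol effect between 0.27 and 0.81. Over all probe sets, the count for the high-fat diet was 0, but 18 with 8 means, 68 with array weights, 2 with only the arrays compared, 2 with the actin covariate, and 0 to 18 when single arrays were left out. The cause was not tested. The number of arrays limits what can be seen, and dim probe sets (CCNA2, CDC20, SKA2) lie closest to the filter.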
